A study of Mus musculus with 5 samples.

Results

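The mouse integrin and laminin subunits measured here are the 36 targets whose gene symbols follow the pattern of an integrin alpha, integrin beta or laminin chain, out of 19346 targets in the table. They comprise 17 integrin alpha subunits, 8 integrin beta subunits and 11 laminin chains, chosen by name and not by their values, and 35 of them are described here. RNA was measured in knees of mouse embryos at E14.5 by GeoMx, in which barcoded probes are hybridised to a fixed section and the barcodes are released by light from each drawn region and sequenced. The mutant genotype, labelled Prrx1-Cre Pdgfra GOF and called GOF here, carries the Prrx1-Cre driver and a gain-of-function (GOF) allele of Pdgfra, which encodes a receptor of the PDGF family. The control genotype, labelled Prrx1-Cre, carries the same driver without that allele, so the driver is shared by every animal. Prrx1-Cre is known to be active in limb bud mesenchyme, from which cartilage, perichondrium and joint tissue arise, and cells of other origin in the sections, such as muscle and vessels, lie outside that lineage. There were 2 animals per genotype, taken as replicates 1 and 2 from the labels, and the labels do not say which mutation the allele carries.

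Integrins are receptors made of an alpha and a beta subunit that bind matrix proteins outside the cell and connect them to the actin cytoskeleton. Laminins are trimers of an alpha, a beta and a gamma chain that form the sheet-like basement membrane around muscle fibres, vessels and epithelia, and they are also found in mesenchyme. In the limb, chondrocytes contact cartilage collagen through collagen-binding integrins, whereas fibrous and joint-forming mesenchyme is rich in fibronectin and fibrillar collagens.

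The GOF animals gave 47 and 46 regions and the controls 46 and 40, which held 55470 to 617053 recovered counts, with a median of 217175, and values are counts scaled so that the upper quartile is 10.9 in every region. The regions were drawn after staining for Sox9 protein, so the level of cartilage genes in a region type is partly set by how it was drawn. The 3 joint region types that both genotypes have are border-zone cartilage (15 and 16 GOF regions, 16 and 13 control regions), inter-joint perichondrium (14 and 12 against 19 and 16) and inter-joint space (7 and 8 against 9 and 9). Fusion regions, 9 and 8 of them, exist for the GOF animals only, and reference cartilage and reference mesenchyme have 1 region per animal each. The negative probe, which measures background, had a median of 2.81. Chondrocyte markers were highest in reference cartilage, and skeletal muscle markers in reference mesenchyme. In controls the 12 chondrocyte markers summed to 13029.9 and 13468 in reference cartilage and 1079 and 985 in inter-joint space, and the 12 skeletal muscle markers to 1235 and 803 in reference mesenchyme and 62.7 and 57.7 in inter-joint space. Pdgfra averaged 49.4 and 48.6 in GOF border-zone cartilage, against 34.7 and 40.4 in controls, and 85.1 and 101.1 in GOF inter-joint space, against 95.1 and 106.998 in controls. In regions of many cells, fewer cells of a type and less RNA per cell cannot be told apart.

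Values in the text are means over the regions of an animal, and differences are on the log2(value + 1) scale with the standard error (SE) of the fit. A call is a limma p below 0.05 after Benjamini-Hochberg adjustment over all 19346 targets. The main test fits all region types together. The reference types, with 1 region per animal, scatter more than the joint types and enter the shared error of that fit, so each difference between joint types is also given from a fit without the reference types. The SE of Itga11 in inter-joint space, for example, was 0.62 in the fit over all types and 0.18 in the fit without the reference types. A member counts as above background in a combination of genotype and region type where its mean in both animals is at least 2 times the mean of the negative probe. Statements that genotypes did not overlap set 2 animals against 2, which often separate without a true difference. The share of all targets that do not overlap was not counted, so such statements describe the values only.

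Of these 35 members, 23 were above background in at least 1 of the 11 combinations, 7 in all 11, and 12 in none. Within the joint region types, 14 members were above background in all 7 combinations: the integrin subunits Itga5, Itga6, Itga9, Itga10, Itga11, Itgav, Itgb1, Itgb3 and Itgb5 and the laminin chains Lama4, Lama5, Lamb1, Lamb2 and Lamc1. The members near background everywhere were Itga2, Itgb4, Itga2b, Itgb6, Itgb7, Itgad, Itgae, Itgal, Itgam, Itgb2, Lama3 and Lamb3, with joint means of 2.67 to 5.68. All 5 leukocyte subunits (Itgad, Itgae, Itgal, Itgam, Itgb2) are among them, as are Lama3 and Lamb3, chains of epithelial laminins. The heat map of these members shows that the widest swings between region types belonged to few of them, chiefly Itga10, Itga11, Itga5, Lamb1 and Lama4 among those above background in every joint combination.

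**Figure D1:**
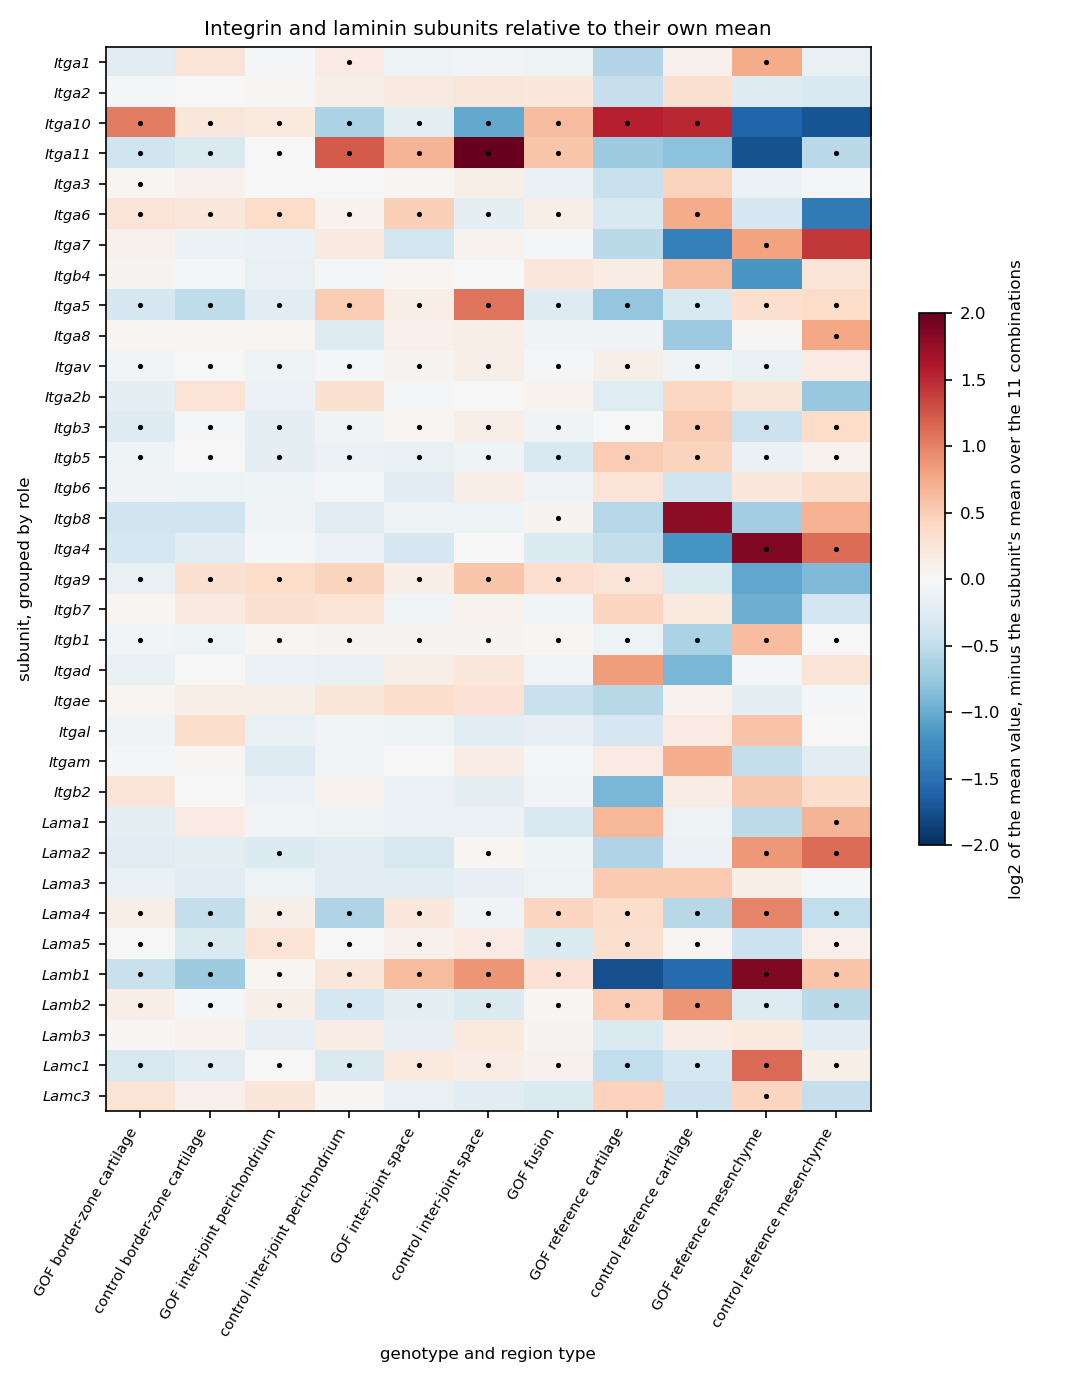
Each row is 1 of 35 subunits, grouped by role, and each column is 1 of the 11 combinations of genotype and region type, with GOF left of control. Colour gives the log2 of the mean value over 2 animals, minus the subunit's own mean over the 11 combinations, and a dot marks a combination above background in both animals. Itga10 is high in the cartilage types and Itga11 in control inter-joint space, and most undotted subunits vary around background.

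The collagen-binding subunits Itga10 and Itga11 had opposite patterns over the joint. Itga10 (chr3:96645584-96664519 in GRCm38.p6) encodes the alpha subunit of a collagen receptor typical of chondrocytes, and Itga11 (chr9:62677855-62783979) that of a fibrillar collagen receptor of mesenchymal cells and fibroblasts. Their promoters are shown because the pair moved in opposite directions between joint region types, and between genotypes in inter-joint space and perichondrium. The windows are 250 bases before to 50 bases after the RefSeq start, chr3:96645334-96645633 on the plus strand for Itga10 and chr9:62677605-62677904 on the plus strand for Itga11, and capitals mark a match, on either strand, to ACAAT (the core of SOX sites), TGANTCA (AP-1), GGGCGG (Sp1) or GCGNGGGCG (EGR).
Itga10: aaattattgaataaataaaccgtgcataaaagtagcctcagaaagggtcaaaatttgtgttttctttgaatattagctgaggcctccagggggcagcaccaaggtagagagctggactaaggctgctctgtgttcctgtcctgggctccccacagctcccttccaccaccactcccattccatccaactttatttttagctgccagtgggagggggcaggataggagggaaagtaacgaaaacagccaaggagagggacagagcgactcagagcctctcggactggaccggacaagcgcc
Itga11: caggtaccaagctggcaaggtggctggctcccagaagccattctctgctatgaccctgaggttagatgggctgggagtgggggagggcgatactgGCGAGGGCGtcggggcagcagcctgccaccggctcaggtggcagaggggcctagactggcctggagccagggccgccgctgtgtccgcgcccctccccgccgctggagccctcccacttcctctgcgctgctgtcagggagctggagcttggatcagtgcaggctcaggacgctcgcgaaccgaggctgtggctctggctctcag
No letters of these 4 motifs were found in the Itga10 window, and 1 EGR match, at position -155 from the start, was found in the Itga11 window. Of all 32851 promoters in the RefSeq table, 31% hold the SOX core, 7.81% the AP-1 motif, 35.7% the Sp1 motif and 5.55% the EGR motif, and 22 of the 35 members described have an entry.

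Itga10 was higher in cartilage than in the joint space in both genotypes and its animal means were higher in GOF than in control animals in every shared joint type. In border-zone cartilage it averaged 27.2 and 31.8 in GOF replicates 1 and 2, against 17.1 and 16.6 in control replicates 1 and 2. In inter-joint perichondrium it averaged 14.3 and 18.9 in GOF animals, against 10.05 and 8.67 in controls. In inter-joint space it averaged 11.7 and 14 in GOF animals, against 6.91 and 7.37 in controls. The animal means of the genotypes did not overlap in any of these types, but single regions did: border-zone regions ran from 7.25 to 53 with a median of 30.2 in GOF animals and from 7.77 to 31.4 with a median of 15.7 in controls. The GOF minus control difference was 0.70 in border-zone cartilage (SE 0.15, adjusted p = 0.0229), 0.69 in perichondrium (adjusted p = 0.00659) and 0.60 in inter-joint space (adjusted p = 0.0140) in the fit without the reference types, in which all of these passed the test. None passed in the fit over all types, where the adjusted p was 1.00 in each. In the smaller fit each of these calls was lost when GOF replicate 2, control replicate 1 or control replicate 2 was left out, with adjusted p up to 0.553. Without GOF replicate 2 the difference in inter-joint space was 0.36. Reference cartilage had 39.6 and 45.3 in GOF animals and 45.1 and 37.5 in controls, which overlap, and reference mesenchyme had 3.26 and 6.35 in GOF animals and 3.26 and 5.44 in controls.

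Within control knees Itga10 fell in inter-joint space relative to border-zone cartilage by 1.12 on the log2 scale (SE 0.26, adjusted p = 0.0254 over all types and 3.58e-08 without the reference types). It rose in reference cartilage relative to border-zone cartilage by 1.31 (SE 0.26, adjusted p = 0.0178). The fusion regions of GOF animals had 20.1 and 24.3, above the 6.91 and 7.37 of control inter-joint space, a difference of 1.47 (SE 0.26, 2.76-fold on this scale, adjusted p = 0.00516). Against inter-joint space of the same GOF animals the fusion difference was 0.87, which passed without the reference types (adjusted p = 2.12e-05) and not over all types (adjusted p = 0.406). The chondrocyte markers moved the same way, with sums of 3950.2 and 4710.0 in GOF fusion regions against 1079 and 985 in control inter-joint space, and all 12 were above background in each of these animals. In border-zone cartilage, where Itga10 was also higher in GOF animals, these markers summed to 4798 and 6209 in GOF animals, against 5748 and 6207 in controls, which overlap. Their part in the Itga10 difference was not tested. In the fit over all types each of the 3 Itga10 calls was lost when any 1 animal was left out, with adjusted p of 0.0554 to 0.979 for space against border-zone cartilage, 0.0697 to 0.219 for reference cartilage and 0.0724 to 0.218 for fusion.

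Among the joint types Itga11 was the reverse, highest in the control joint space and lower there in GOF animals. In inter-joint space it averaged 13.5 and 29.3 in GOF replicates 1 and 2, against 49.8 and 60.5 in control replicates 1 and 2. In inter-joint perichondrium it averaged 10.6 and 16.1 in GOF animals, against 28.9 and 33.6 in controls, and in border-zone cartilage 10.6 and 9.64 against 9.47 and 12.4. The genotypes did not overlap in space and perichondrium but did in border-zone cartilage, and the GOF animals differed from each other in the space. Regions of inter-joint space ran from 6.69 to 46.2 with a median of 18.1 in GOF animals and from 39 to 86.2 with a median of 53 in controls. The GOF minus control difference in inter-joint space was -1.53 (SE 0.18, 95% interval -1.90 to -1.15, adjusted p = 1.51e-07) without the reference types, and the adjusted p was 1.00 over all types. In perichondrium it was -1.17 (adjusted p = 8.12e-05 without and 1.00 with the reference types). Both calls of that fit remained when any 1 animal was left out. Across the types of control knees, inter-joint space exceeded border-zone cartilage by 2.32, with an adjusted p of 0.0758 over all types and 4.98e-14 without the reference types. The fusion regions had 16.7 and 22.5, between GOF border-zone cartilage and control inter-joint space. Fusion minus control inter-joint space was -1.49 and fusion minus GOF border-zone cartilage was 0.96, with adjusted p of 8.75e-08 and 5.26e-04 without the reference types and 0.924 and 1.00 over all types. The second of these calls was lost without GOF replicate 2 (adjusted p = 0.0720). Markers of the joint interzone, a list of 6 that includes Gdf5, summed to 268 and 330.2 in GOF inter-joint space, against 625 and 677 in controls, and the 6 fibroblast markers to 611 and 794 against 1023 and 1065, with at least 5 of 6 in each list above background in every one of these animals. In GOF fusion regions the interzone markers summed to 190.2 and 203.9 and the fibroblast markers to 1189 and 1192. In reference mesenchyme the fibroblast markers summed to 2079 and 1799 in GOF animals and 2447 and 2789 in controls. Itga11 there was low, at 7.07 and 0.91 in GOF animals and 9.79 and 8.70 in controls. The part of both lists in the Itga11 differences was not tested.

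**Figure D2:**
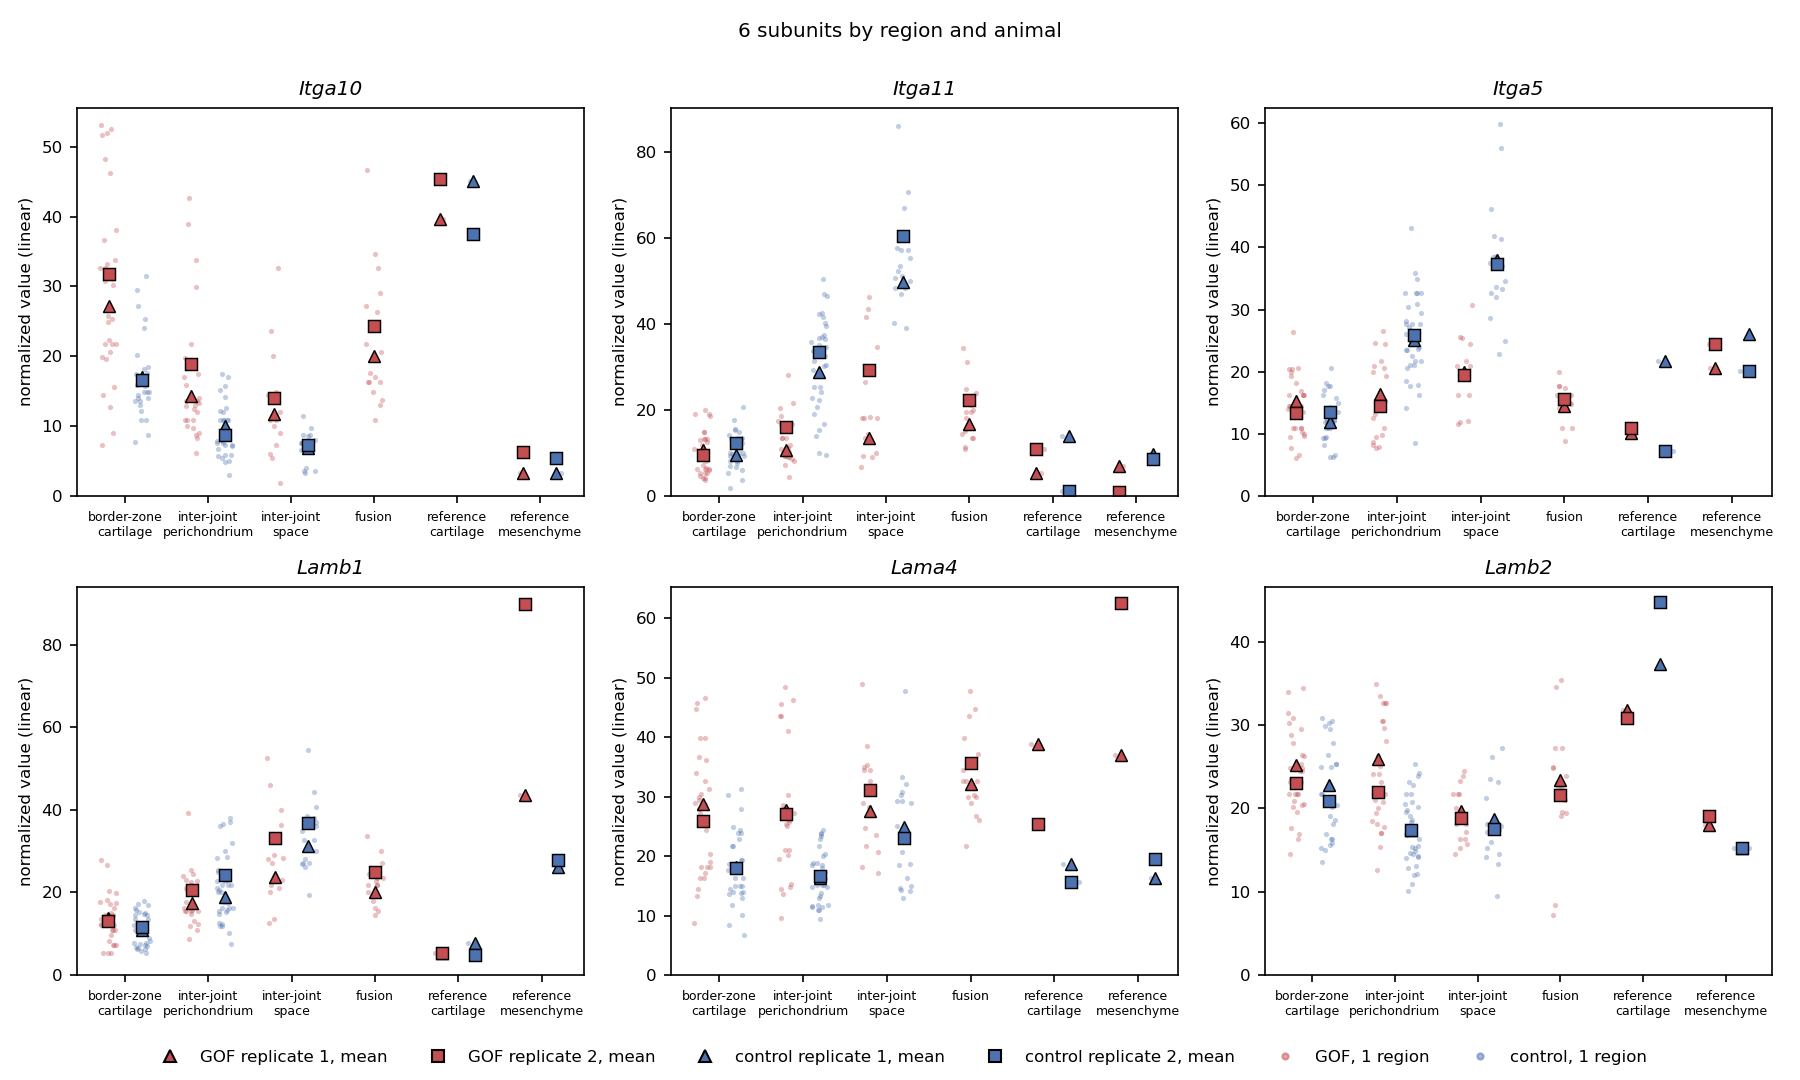
Normalized value (linear axis from 0) of 6 subunits in every region, with GOF in red left of control in blue for each region type and fusion regions in GOF animals alone. Small points are regions, triangles are means of replicate 1 and squares means of replicate 2. Itga11 and Itga5 of control inter-joint space lie above GOF inter-joint space in both animals, and Itga10 and Lama4 of GOF animals lie above controls in each of the 3 shared joint types.

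Set side by side in each animal, log2(Itga10 + 1) minus log2(Itga11 + 1), averaged over regions, was -0.44 and -0.95 in GOF inter-joint space, against -2.76 and -2.88 in controls. It was 0.31 and 0.14 in GOF perichondrium, against -1.38 and -1.88 in controls, and 1.18 and 1.72 in GOF border-zone cartilage, against 0.86 and 0.38 in controls. The fusion regions had 0.22 and 0.06. The probes of these genes differ, so the difference is read between samples only. The genotypes did not overlap in any of the 3 shared joint types, which restates the values of these members and adds no separate support. In border-zone cartilage Itga11 itself overlapped. The difference overlapped in reference cartilage (2.66 and 1.96 in GOF animals, against 1.62 and 4.12 in controls). It also did in reference mesenchyme (-0.92 and 1.95, against -1.34 and -0.59). Over all joint regions of the 4 animals, Itga10 and Itga11 had a Spearman correlation of -0.58, and regions share animals, region types and scaling.

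**Figure D3:**
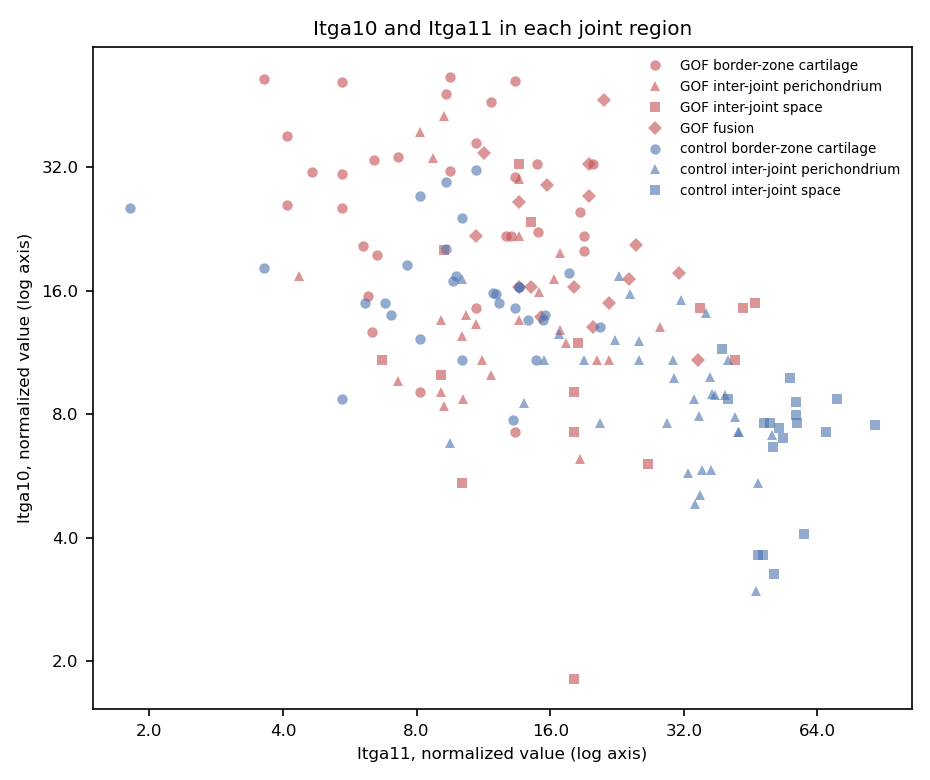
Each point is 1 joint region, with the value of Itga11 on the horizontal axis and that of Itga10 on the vertical axis (both log axes). Control inter-joint space lies at the lower right, cartilage of both genotypes at the upper left, and GOF fusion regions between them.

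The other collagen-binding subunits were low. Itga1, of a receptor for basement membrane and other collagens, had 9.16 in GOF reference mesenchyme, its highest mean, and 3.63 in GOF reference cartilage, its lowest. Itga2 was above background in no combination, with joint means of 3.31 to 3.94.

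Among the laminin-binding subunits only Itga6 was above background in all joint combinations. It encodes an alpha subunit that pairs with beta1 or beta4. It had 10.9 and 11.4 in GOF inter-joint space, against 7.82 and 6.11 in controls, and the animals did not overlap. The difference was 0.61 (SE 0.16, adjusted p = 0.0182 without the reference types and 1.00 over all types), and it was lost without control replicate 2 (adjusted p = 0.536). The endothelial markers, a list of 11, summed to 86 and 91.9 in GOF inter-joint space, against 65.1 and 65.2 in controls, with 10 and 11 of them above background in GOF replicates 1 and 2, against 2 and 6 in controls. Vessels are a tissue where Itga6 is known to be expressed, and the part of these markers was not tested. In control knees Itga6 fell in reference mesenchyme relative to perichondrium by 1.19 (SE 0.31, adjusted p = 0.0437), with 2.18 and 3.81 in reference mesenchyme and 7.99 and 8.86 in perichondrium, and the call was lost whichever animal was left out (adjusted p of 0.0625 to 0.793) and by edgeR (adjusted p = 0.119). Itga7, the main laminin receptor subunit of skeletal muscle, had 9.52 in control reference mesenchyme, its highest mean, and 1.38 in control reference cartilage, its lowest. The muscle markers summed to 793 to 1342 in reference mesenchyme of both genotypes and 46.7 to 83.9 in the other types. Itga7 was above background in 1 of the 11 combinations, so at most 1 genotype passed in reference mesenchyme. The part of these markers was not tested. In control reference mesenchyme relative to perichondrium, Itga7 was called by edgeR (1.18, adjusted p = 0.0419) and not by limma (1.08, adjusted p = 0.0873). Itga3, another laminin receptor subunit, had 4.14 in GOF reference cartilage, its lowest, and 7.68 in control reference cartilage, its highest mean. Itgb4, the beta partner of alpha6 in hemidesmosomes, was above background in no combination.

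Of the subunits of receptors that bind the RGD sequence, Itga5 alone was called between joint types or genotypes. It encodes the alpha subunit of the main fibronectin receptor and lies at chr15:103344286-103366791. Its promoter and that of Lamb1, described with the laminins, are shown because both genes were high in the control joint space as Itga11 was. The window of Itga5 is chr15:103366742-103367041 on the minus strand, that of Lamb1 chr12:31265043-31265342 on the plus strand, and the capitals mark the motifs listed above.
Itga5: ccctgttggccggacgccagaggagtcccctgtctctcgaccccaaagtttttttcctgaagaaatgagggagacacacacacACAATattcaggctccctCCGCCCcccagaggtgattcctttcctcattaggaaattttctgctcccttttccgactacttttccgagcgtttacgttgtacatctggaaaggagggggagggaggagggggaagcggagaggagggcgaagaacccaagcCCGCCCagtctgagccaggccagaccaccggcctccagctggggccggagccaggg
Lamb1: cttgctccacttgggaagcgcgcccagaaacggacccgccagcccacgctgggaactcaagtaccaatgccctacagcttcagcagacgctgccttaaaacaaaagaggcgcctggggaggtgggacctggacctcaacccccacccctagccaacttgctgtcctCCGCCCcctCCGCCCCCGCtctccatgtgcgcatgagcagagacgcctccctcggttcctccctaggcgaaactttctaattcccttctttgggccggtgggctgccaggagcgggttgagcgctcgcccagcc
The Itga5 window holds 1 SOX core, at -167, and 2 Sp1 motifs, and the Lamb1 window 2 Sp1 motifs and 1 EGR match that overlaps the second of them. None of the 4 windows holds an AP-1 motif of these letters. The start used for the Lamb1 window lies inside the gene span given with the laminins, which begins at chr12:31265146. Its motifs are therefore not placed relative to the first base of that span. These letters describe the windows and show no factor binding.

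Itga5 averaged 20.01 and 19.4 in inter-joint space of GOF replicates 1 and 2, against 37.9 and 37.3 in controls. In perichondrium it averaged 16.4 and 14.503 in GOF animals, against 25.2 and 26 in controls, and in border-zone cartilage 15.3 and 13.3 against 11.8 and 13.4. The genotypes were far apart in space and perichondrium and overlapped in border-zone cartilage. The difference was -0.91 in inter-joint space (SE 0.12, 95% interval -1.16 to -0.66, adjusted p = 1.90e-06) and -0.71 in perichondrium (adjusted p = 3.98e-04) without the reference types, against an adjusted p of 0.737 and 1.00 over all types. The first call remained when any 1 animal was left out, and the second was lost without control replicate 2 (adjusted p = 0.0652). The genotype difference was larger in the space than in the cartilage: the difference between the genotype effects was -1.06 (SE 0.16, adjusted p = 7.33e-05 without the reference types and 1.00 over all types). In control knees Itga5 rose in inter-joint space relative to border-zone cartilage by 1.52 (SE 0.29, 2.87-fold, adjusted p = 0.00455). The fusion regions had 14.48 and 15.6 and fell relative to control inter-joint space by 1.25 (SE 0.29, adjusted p = 0.0468). Over all types, both calls were lost without GOF replicate 1 or GOF replicate 2, with adjusted p up to 0.150 and 1.00. Reference mesenchyme had 20.7 and 24.5 in GOF animals and 26.1 and 20.1 in controls. The joint interzone markers, lower in GOF inter-joint space as given for Itga11, summed in perichondrium to 230.0 and 251 in GOF animals, against 356 and 465 in controls, with 5 and 6 of 6 above background in GOF replicates 1 and 2, against 5 and 6 in controls. The 7 pericyte markers summed in inter-joint space to 108.03 and 96.8 in GOF animals, against 136.9 and 135.9 in controls, with 5 above background in each animal, and in perichondrium to 106.6 and 115.6 in GOF animals, against 131.6 and 148.6 in controls, with 4 and 6 above background, against 4 and 5. The pericyte sums were as high in control border-zone cartilage (137.1 and 142.1), where Itga5 was low. Between control inter-joint space and border-zone cartilage, the main test called Rgs5 (1.35) and Mcam (1.17) higher and Cspg4 (-1.37) lower. Without the reference types, Rgs5 (-1.28) and Mcam (-0.68) were called lower in GOF than in control inter-joint space. In perichondrium Mcam (-0.86) and Rgs5 (-0.73) were called lower in that fit. No other pericyte marker was called in these genotype comparisons. The part of these lists in the Itga5 differences was not tested.

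The other RGD-binding subunits were even across the joint. Itgav, the alpha subunit that pairs with several beta subunits, had joint means of 10.7 to 12.4, and over all combinations 10.2 in GOF reference mesenchyme, its lowest, and 12.8 in control reference mesenchyme, its highest mean. Itgb5, one of its partners, had joint means of 12.2 to 14.9, with 21.4 in GOF reference cartilage, its highest mean, and 12.2 in GOF fusion, its lowest. Itgb3, a further partner, had joint means of 6.0 to 7.92, with 5.35 in GOF reference mesenchyme, its lowest, and 10.1 in control reference cartilage, its highest mean. Neither fit called these members in any comparison, and the 95% intervals of their GOF minus control difference in inter-joint space, without the reference types, were -0.36 to 0.21 for Itgav, -0.33 to 0.22 for Itgb5 and -0.56 to 0.25 for Itgb3. Itga8, of a nephronectin receptor, had 8.97 in control reference mesenchyme, its highest mean, and 3.19 in control reference cartilage, its lowest. Itgb8, of a receptor that activates latent TGF-beta, was listed at 32.6 in the reference cartilage of control replicate 1 and 6.04 in that of control replicate 2, so its edgeR call in reference cartilage against border-zone cartilage (2.06, adjusted p = 0.00482) rests on 1 region, and limma did not call it (adjusted p = 0.0975). Over all combinations Itgb8 had 3.44 in GOF reference mesenchyme, its lowest, and 19.3 in control reference cartilage, its highest mean. Itga2b, the platelet fibrinogen receptor subunit, and Itgb6, an epithelial one, were above background in no combination.

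Itga9, the alpha subunit of a receptor for tenascin-C and other ligands, was above background in all joint combinations, with joint means of 7.21 to 11.8, and over all combinations 3.90 in GOF reference mesenchyme, its lowest, and 11.8 in control inter-joint space, its highest mean. Itga4, of a receptor for fibronectin and VCAM1, had 16.2 in GOF reference mesenchyme, its highest mean, and 1.99 in control reference cartilage, its lowest. In control reference mesenchyme relative to perichondrium, edgeR called Itga4 higher (1.38, adjusted p = 0.00919) while the limma adjusted p was 0.0835. Itgb7, a lymphocyte subunit, was above background nowhere. Itgb1, the beta subunit that pairs with most of the alpha subunits above, was nearly level over the joint. Its joint means were 29.1 to 32.3, and over all combinations it had 47.8 in GOF reference mesenchyme, its highest mean, and 20.1 in control reference cartilage, its lowest. The 95% interval of its GOF minus control difference without the reference types was -0.23 to 0.27 in inter-joint space, -0.26 to 0.24 in perichondrium and -0.20 to 0.30 in border-zone cartilage.

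Among the laminin alpha chains, Lama4 (chr10:38965515-39110188), the chain of mesenchymal and vessel laminins, was higher in GOF than in control animals in each type. It averaged 28.8 and 25.9 in GOF border-zone cartilage, against 18.2 and 18.1 in controls. In perichondrium it averaged 27.8 and 27.2 in GOF animals, against 16.4 and 16.7 in controls, and in inter-joint space 27.6 and 31.2 against 24.9 and 23.1. Reference cartilage had 38.8 and 25.4 in GOF animals and 18.6 and 15.7 in controls, and reference mesenchyme 37 and 62.5 in GOF animals and 16.3 and 19.6 in controls. The genotypes did not overlap in any of the 5 types that both have. The difference passed in perichondrium (0.63, SE 0.12, adjusted p = 0.00168) and border-zone cartilage (0.55, adjusted p = 0.0345) and not in inter-joint space (0.32, adjusted p = 0.204) in the fit without the reference types. Over all types none passed (adjusted p = 1.00 in each). In the smaller fit the call in perichondrium was lost without control replicate 1 or control replicate 2, and the call in border-zone cartilage without GOF replicate 1 or either control. The fusion regions had 32.2 and 35.7, 0.55 above control inter-joint space (adjusted p = 0.00216 without the reference types and 0.881 over all types), a call lost without either control. The endothelial markers summed to 59.7 and 59.7 in GOF border-zone cartilage, against 59 and 53.8 in controls, and to 60.6 and 57.8 in GOF perichondrium, against 63.4 and 58.5 in controls. They summed to 86 and 91.9 in GOF inter-joint space, against 65.1 and 65.2 in controls, to 65.3 and 67.1 in GOF reference cartilage, against 62.2 and 55.6, and to 76.7 and 100.6 in GOF reference mesenchyme, against 59.8 and 51.7. Their part in the Lama4 differences was not tested. In control knees Lama4 was 0.37 higher in inter-joint space than in border-zone cartilage (adjusted p = 0.0325 and 1.00) and 0.46 higher than in perichondrium (adjusted p = 0.0181 and 1.00), each without and with the reference types, and both calls were lost without either control.

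Lama5, a chain found in many basement membranes, had 8.21 and 8.51 in GOF fusion regions, against 10.9 and 11.8 in control inter-joint space. Control border-zone cartilage had 9.18 and 7.41. In the fit without the reference types the fusion regions were -0.50 from control inter-joint space (adjusted p = 0.0377), and control inter-joint space was 0.50 from control border-zone cartilage (adjusted p = 0.0154). Over all types neither passed (adjusted p = 1.00 and 1.00), and leaving out either control ended both calls of the smaller fit, as leaving out GOF replicate 2 did for the fusion call. Without control replicate 2 the difference between control inter-joint space and border-zone cartilage was 0.29. Lama2, the chain of muscle basement membrane, had 4.40 in GOF reference cartilage, its lowest, and 14.4 in control reference mesenchyme, its highest mean. It was 1.25 higher in control reference mesenchyme than in perichondrium (SE 0.34, adjusted p = 0.0570 by limma and 8.57e-04 by edgeR), where the muscle markers were also high. Lama1, an early embryonic chain, had 3.08 in GOF reference mesenchyme, its lowest, and 7.07 in control reference mesenchyme, its highest mean.

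The beta chains Lamb1 (chr12:31265146-31329644) and Lamb2 (chr9:108479847-108490530), which take the same place in the trimer, had different patterns. Lamb1 rose in control inter-joint space relative to border-zone cartilage by 1.56 (SE 0.27, 2.95-fold, adjusted p = 0.00172), with 31.2 and 36.7 in the space and 10.8 and 11.6 in the cartilage. Over all types this call was lost without either control (adjusted p up to 0.328), and without the reference types it remained when any 1 animal was left out. Perichondrium lay between, at 18.8 and 24.2, 0.87 above the cartilage (adjusted p = 1.07e-05 without the reference types and 0.537 over all types), a call lost without control replicate 2. In GOF animals Lamb1 had 23.7 and 33.2 in inter-joint space, 17.3 and 20.5 in perichondrium and 13.9 and 13 in border-zone cartilage. The GOF minus control difference in inter-joint space had a 95% interval of -0.60 to -0.02 without the reference types and did not pass after adjustment (adjusted p = 0.342). Reference mesenchyme had 43.5 and 89.7 in GOF animals and 26.1 and 27.7 in controls, 1 region each, and reference cartilage 5.44 and 5.44 in GOF animals and 7.77 and 4.83 in controls. The fusion regions had 20.1 and 24.9, 0.77 above GOF border-zone cartilage (adjusted p = 2.90e-04 without the reference types and 1.00 over all types) and -0.57 from control inter-joint space (adjusted p = 0.00908 and 1.00). Leaving out GOF replicate 2 ended the first of these calls, and leaving out GOF replicate 1 or control replicate 2 ended the second.

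Lamb2 rose in control reference cartilage relative to border-zone cartilage by 0.91 (SE 0.17, adjusted p = 0.0155), with 37.3 and 44.7 in reference cartilage and 22.9 and 20.9 in border-zone cartilage. The call was lost when any 1 animal was left out (adjusted p of 0.0727 to 0.205). In perichondrium it averaged 26 and 22 in GOF animals, against 17.4 and 17.4 in controls, 0.51 higher by edgeR (adjusted p = 0.0325) and 0.43 by limma without the reference types (adjusted p = 0.0960). Lamc1, the gamma chain of most laminins, had joint means of 10.9 to 15.6 and was called in no comparison, with 29.6 in GOF reference mesenchyme, its highest mean, and 9.71 in GOF reference cartilage, its lowest. Lamc3, a gamma chain of some peripheral tissues, had 6.22 in GOF reference cartilage, its highest mean, and 3.26 in control reference mesenchyme, its lowest. In the reference mesenchyme of GOF replicate 2, Lama4, Lamb1 and Lamc1 were listed at 62.5, 89.7 and 43.5, each the highest value of its chain over the 22 animal means. The endothelial markers summed to 100.6 in that region, against 76.7 in GOF replicate 1 and 59.8 and 51.7 in controls. The 8 Schwann cell and nerve markers summed to 78 in that region, with 6 above background, against 42.4 with 2 in GOF replicate 1 and 37 and 39.2 with 1 each in controls. The negative probe, which sets the background cut, was 1.72 in that region, against 3.14 in GOF replicate 1 and 2.97 and 3.17 in controls. The counts above background were therefore taken at a lower cut in that region. The part of either list was not tested.

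Region-type differences in control knees set the joint space apart by few members. Between inter-joint space and border-zone cartilage, the main test called 3 of the 35 members (Lamb1 and Itga5 higher, Itga10 lower), beside 1.3% of all targets. The fit without the reference types called 6, adding Itga11, Lama5 and Lama4, all higher, beside 7.43% of all targets, and edgeR called 5, the same without Lama4, beside 5.33%. The median difference of the 35 members was 0.14, and that of all targets 0.03. Of 21 other integrin ligands, the main test called 5, among them Thbs1 (-2.50), Ccn2 (-2.37) and Postn (2.22). Fn1, which encodes fibronectin and is named here after its values were seen, was 1.73 higher (adjusted p = 8.62e-04). Of 24 integrin-linked adhesion proteins it called Zyx, which encodes the focal adhesion protein zyxin (1.55, adjusted p = 5.88e-05), and of 18 basement membrane partners it called 0, with 2 called lower (Nid2 and Hspg2) without the reference types.

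Between perichondrium and border-zone cartilage, the main test called 0 members, beside 0.186% of all targets, with 4 at an unadjusted p below 0.05. Without the reference types it called 4 (Itga11, Itga5 and Lamb1 higher, Itga10 lower), beside 2.7% of all targets, and edgeR called the same 4, beside 2.31%. In the fit without the reference types, Itga10 (adjusted p = 0.154) and Lamb1 (0.0610) were lost without control replicate 2. In the main test the ligand Postn was higher (1.53) and Ccn2 lower (-1.45) in perichondrium, and the adhesion gene Zyx was higher (0.98). Between inter-joint space and perichondrium, the main test called 0 members, beside 0.0% of all targets, with 1 at an unadjusted p below 0.05. Without the reference types it called 4, all higher in the space (Lamb1, Itga11, Itga5 and Lama4), beside 1.6% of all targets, and edgeR called 0, beside 0.889%, with 6 at an unadjusted p below 0.05. Each of these 4 was lost without either control animal. In both control animals Itga11, Itga5 and Lamb1 were highest in space, intermediate in perichondrium and lowest in cartilage, and Itga10 had the opposite order.

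The reference types gave few calls among the members. Between reference mesenchyme and perichondrium of controls, the main test called 1 member (Itga6, lower), beside 2.03% of all targets, and edgeR called 4 (Lama2, Itga4 and Itga7 higher, Itga11 lower), beside 2.7% of all targets. Of the 18 basement membrane partners, 3 rose there: Col18a1 (1.79), Col4a1 (1.04) and Col4a2 (0.87), collagen chains of basement membrane. Of the 21 ligands, Npnt, which encodes nephronectin, rose there (1.44) and Ccn2 fell (-1.11), and of the 24 adhesion proteins Tns2 (-1.48) and Zyx (-0.75) fell. Between reference cartilage and border-zone cartilage of controls, 2 members were called (Lamb2 and Itga10, both higher), beside 0.734% of all targets, and edgeR added Itgb8, beside 0.274%. Of the basement membrane partners, Nid2 (1.82) and Hspg2, which encodes perlecan (1.21), rose with them. The ligands Ccn2 (-1.61) and Svep1 (-1.43) and the adhesion gene Zyx (-0.84) fell. With 1 reference region per animal, weighting each mean by its number of regions ended all of these member calls.

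The genotype comparisons gave 0 member calls in the main test. The main test called 0.103% of all targets in inter-joint space, 0.0155% in perichondrium and 0.00517% in border-zone cartilage, and 3, 4 and 2 members had an unadjusted p below 0.05 in these types. Without the reference types 4 members were called in inter-joint space (Itga10 and Itga6 higher, Itga11 and Itga5 lower), beside 2.69% of all targets. In perichondrium 4 were called (Itga10 and Lama4 higher, Itga11 and Itga5 lower), beside 1.03%, and in border-zone cartilage 2 (Itga10 and Lama4, both higher), beside 0.212%. EdgeR called 4, 5 and 1 members in the same types, beside 1.86%, 1.18% and 0.16% of all targets. The 3 types come from the same animals. The difference between the genotype effects of inter-joint space and border-zone cartilage was called for 0 members in the main test, beside 0.0% of all targets, with 1 at an unadjusted p below 0.05, and for Itga5 and Itga11 without the reference types, beside 0.765%, and edgeR called Itga5 alone, beside 0.279%. That between perichondrium and border-zone cartilage was called for 0 members in the main test, beside 0.0%, with 1 at an unadjusted p below 0.05, and for Itga5 without the reference types, beside 0.0672%, while edgeR called 0, with 3 at an unadjusted p below 0.05, beside 0.0%.

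**Figure D4:**
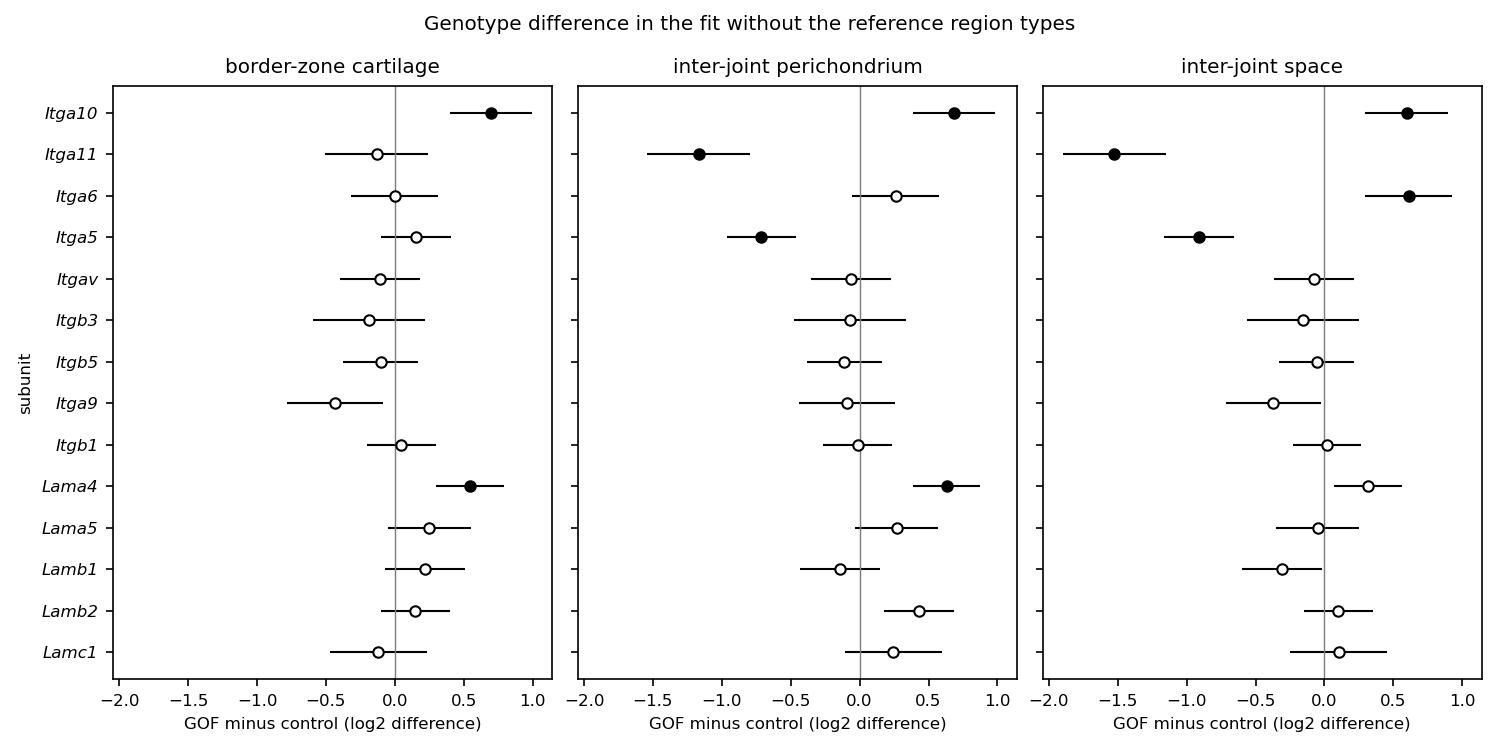
GOF minus control difference (log2 scale) of the 14 subunits above background in all joint combinations, in the fit without the reference region types, with 1 panel per region type. Points are estimates from 2 animals per genotype, bars are 95% intervals, and filled points passed an adjusted p of 0.05 in this fit, while the fit over all region types called none of them. Itga10 lies right of 0 in all panels, and Itga11 and Itga5 lie left of 0 in perichondrium and inter-joint space.

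Some partners of the members also differed in the GOF joint space. Postn, an integrin ligand of fibrous tissue, fell by 1.5 on the log2 scale in the main test (adjusted p = 0.0442), the only one of 21 ligands called. Without the reference types 5 ligands were called. Postn, Fbln5 (-0.85) and Fn1 (-0.79, adjusted p = 4.66e-04) were lower, and Spp1 (0.65) and Svep1 (0.64) were higher. The shares of all targets called in inter-joint space were 0.103% in the main test and 2.69% without the reference types. Of the 18 basement membrane partners the main test called 0 in any genotype comparison, and without the reference types 4 were higher in inter-joint space, with Fras1 (0.82), Agrn (0.80) and Col4a1 (0.75) among them. The median difference of the 18 was 0.20, and that of all targets was -0.04. Of the 24 adhesion proteins, the main test called 0, and 4 were called without the reference types, among them Zyx (-0.95), the focal adhesion gene Tns2 (0.90) and Vcl, which encodes vinculin (-0.62). In perichondrium, Postn (-1.16), Fn1 (-0.85) and Zyx (-0.65) were called lower without the reference types, and in border-zone cartilage Ccn2 was (-0.80).

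The fusion regions, present in GOF animals alone, had Itga10 between the control and GOF levels of border-zone cartilage, and Itga11 and Lamb1 between GOF border-zone cartilage and control inter-joint space. Against control inter-joint space, the main test called 2 members (Itga10 higher, Itga5 lower), beside 0.729% of all targets, and the fit without the reference types called 6, adding Lama4 higher and Itga11, Lamb1 and Lama5 lower, beside 5.21%. EdgeR called 4 (Itga10 and Lama4 higher, Itga5 and Itga11 lower), beside 4.15%. In this comparison genotype and region type differ at once and cannot be told apart. Against inter-joint space of the same animals the main test called 0 members, beside 0.222%, with 1 at an unadjusted p below 0.05, and without the reference types Itga10 was called, beside 4.57%, as it was by edgeR, beside 2.17%. Against GOF border-zone cartilage the main test called 0 members, beside 0.0103%, with 1 at an unadjusted p below 0.05, and without the reference types Lamb1 and Itga11 were called higher, beside 1.19%, while edgeR called 0 members, with 6 at an unadjusted p below 0.05, beside 0.372%. Among the ligands, the main test called Fn1 lower (-2.06, adjusted p = 3.72e-04) and Thbs1 higher (1.62) than in control inter-joint space, and among the adhesion proteins Zyx lower (-1.23) and Tns3 higher (1.13). Of the 18 basement membrane partners, 8 were higher without the reference types, led by Nid2 (1.17), Frem1 (0.92) and Nid1 (0.81), and the main test called 0.

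**Figure D5:**
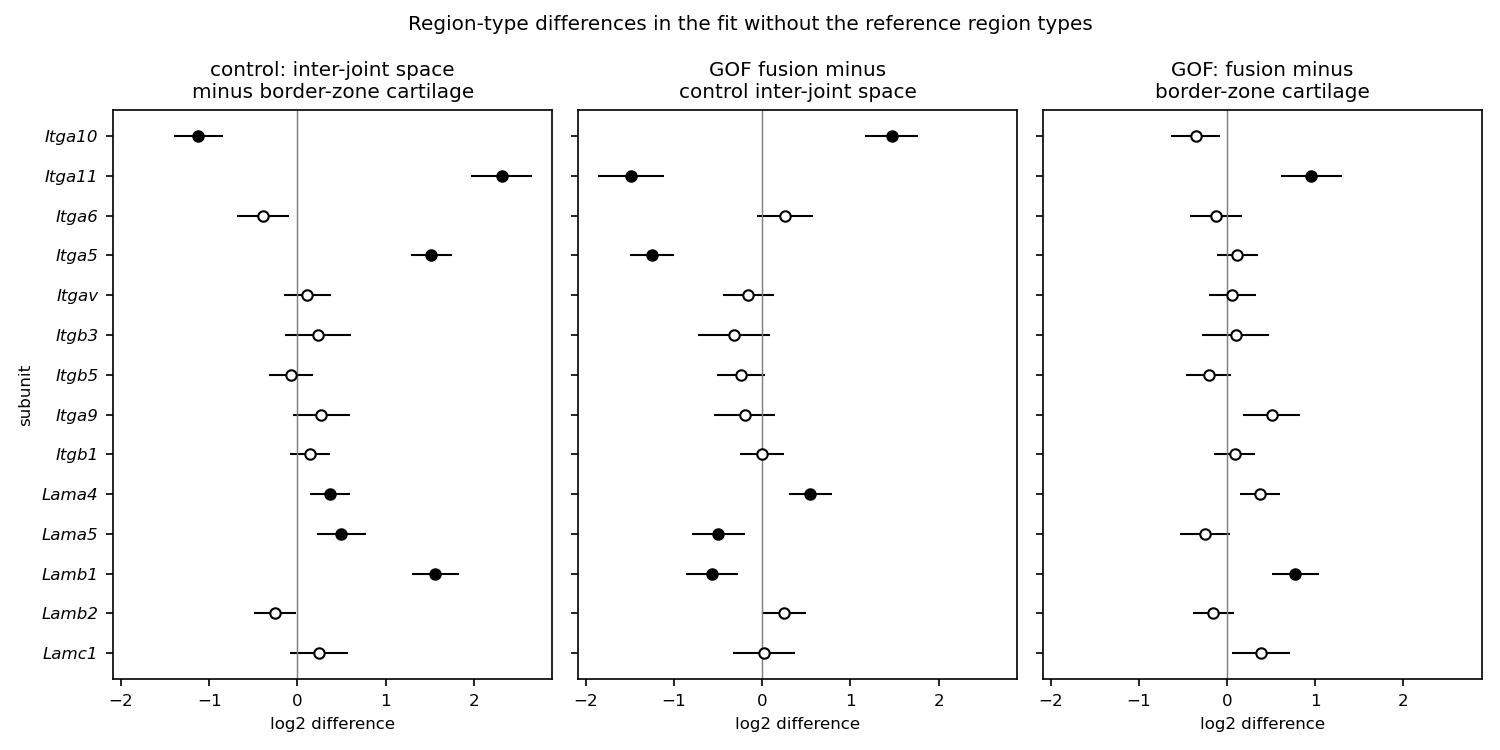
Differences (log2 scale) of the same 14 subunits between region types, in the fit without the reference region types, with points as estimates from 2 animals per genotype, bars as 95% intervals and filled points past an adjusted p of 0.05. Itga11, Itga5 and Lamb1 lie right of 0 between control inter-joint space and border-zone cartilage and left of 0 between GOF fusion and control inter-joint space, and Itga10 does the opposite.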

How the data were processed

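RNA of regions from the knees of 4 embryos was read as barcoded probes. The deposited values are a signal: per the labels and the file headers they are region values that the authors scaled by the upper quartile of all targets, and the submitters' processing notes name Seurat and the mouse build mm10. Dividing each region by its smallest step gave whole counts for 99.98% of values (tolerance 0.01), 4 targets apart, so the values are counts scaled to 1 upper quartile, which can hide a shift shared by most targets. A no template control has no column and was not analysed here.

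From these values, the mean of log2(value + 1) was taken per animal and region type, giving 22 means. Region types were read from the labels of the regions, and animals were grouped by the genotype in their labels. limma 3.58.1 in R 4.3.3 was fitted to 19346 targets with the animal as a random block (correlation 0.026) and a mean-dependent variance, with two-sided p-values and Benjamini-Hochberg adjustment over all targets of a comparison. The fit without the reference region types was the same (correlation 0.141). The error of a target pools its residuals over all combinations of genotype and region type. It is then drawn towards the variance of other targets. Residual and prior degrees of freedom were 11 and 9.95 over all types, and 7 and 33.2 without the reference types. The p-values therefore do not measure the spread of 2 against 2 animals alone, and only 4 animals were sampled. edgeR 4.0.16 (quasi-likelihood) and DESeq2 1.42.0 were run on the recovered counts summed per animal and region type. Total counts per region limit precision for low targets, and regions of 1 animal were never treated as replicates. Other settings were another pseudocount (0.5 and 5), a filter on low values, weights by number of regions, subtraction of the negative probe, medians over regions, the replicate number as a block and each animal left out. Leaving out an animal in the fit without the reference types was chosen after seeing the data. The scripts were tested on simulated data.

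Every subunit called in either limma fit is named with values. The other subunits above background are named with their highest and lowest means, and those at background with their range. Of other lists, the genes named are called ones among the 3 with the largest differences of that list in that comparison. Added to these are Fn1 in control space against border-zone cartilage, and Spp1 and Svep1 in GOF against control inter-joint space. Of the subunits found by name, 1 is not reported here. The members and lists were chosen with earlier results of these data known. Tables were handled with Python 3.11.15, pandas 2.3.3 and numpy 2.4.6. Promoters come from RefSeq (GRCm38.p6).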

Additional observations from a re-analysis of the deposited data

Results flagged for a closer look

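The GOF minus control difference of Itga5 and Itga11 was not the same in all region types, by a test of the difference itself in the fit without the reference region types. For Itga5, the effect in inter-joint space minus that in border-zone cartilage was -1.06 (SE 0.16, adjusted p = 7.33e-05), and it remained past the threshold when any 1 animal was left out. For Itga11 the same difference was -1.40 (SE 0.24, adjusted p = 4.35e-04), and it was lost without control replicate 1 (adjusted p = 0.0794). With 1 animal left out, its value lay between -1.98 and -0.82, the value nearest 0 being that without GOF replicate 1. For Itga5, the effect in perichondrium minus that in border-zone cartilage was -0.87 (SE 0.16, adjusted p = 0.0178), and it was lost without either control. Over all region types none of these passed (adjusted p = 1.00 in each).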

How the results depend on the processing

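The number of members called moved with the region types in the fit, the weights, the tool and the animals included. The share of all targets called is given above for both limma fits and for edgeR. For the other settings that share is not given. Their member counts therefore cannot be told from a general rise or fall in calls. In the fit over all types it was 3 for control space minus border-zone cartilage, 1 for reference mesenchyme minus perichondrium, 2 for reference cartilage minus border-zone cartilage, 2 for fusion minus control space and 0 for the others. Without the reference types it was 6 for control space minus border-zone cartilage, 4 for control perichondrium minus border-zone cartilage, 4 for control space minus perichondrium, 4 for GOF minus control in space, 4 for GOF minus control in perichondrium, 2 for GOF minus control in border-zone cartilage, 6 for fusion minus control space, 1 for fusion minus GOF space, 2 for fusion minus GOF border-zone cartilage, 2 for the genotype effect in space minus that in border-zone cartilage and 1 for the genotype effect in perichondrium minus that in border-zone cartilage. Weights by number of regions gave 6 for control space minus border-zone cartilage, 5 for control perichondrium minus border-zone cartilage, 4 for control space minus perichondrium, 0 for reference mesenchyme minus perichondrium, 0 for reference cartilage minus border-zone cartilage, 3 for GOF minus control in space, 5 for GOF minus control in perichondrium, 2 for GOF minus control in border-zone cartilage, 5 for fusion minus control space, 1 for fusion minus GOF space, 2 for fusion minus GOF border-zone cartilage, 2 for the genotype effect in space minus that in border-zone cartilage and 2 for the genotype effect in perichondrium minus that in border-zone cartilage. edgeR gave 5 for control space minus border-zone cartilage, 4 for control perichondrium minus border-zone cartilage, 4 for reference mesenchyme minus perichondrium, 4 for GOF minus control in space, 5 for GOF minus control in perichondrium, 1 for GOF minus control in border-zone cartilage, 4 for fusion minus control space, 1 for fusion minus GOF space and 1 for the genotype effect in space minus that in border-zone cartilage. DESeq2 gave 5 for control space minus border-zone cartilage, 4 for control perichondrium minus border-zone cartilage, 1 for control space minus perichondrium, 3 for reference mesenchyme minus perichondrium, 3 for GOF minus control in space, 4 for GOF minus control in perichondrium, 2 for GOF minus control in border-zone cartilage, 4 for fusion minus control space, 1 for fusion minus GOF space, 1 for the genotype effect in space minus that in border-zone cartilage and 1 for the genotype effect in perichondrium minus that in border-zone cartilage. With a pseudocount of 0.5 it was 1 for fusion minus control space, with one of 5 2 for reference mesenchyme minus perichondrium, with the filter on low values 3 for reference mesenchyme minus perichondrium, and with the negative probe subtracted 4 for reference mesenchyme minus perichondrium, 1 for reference cartilage minus border-zone cartilage and 1 for fusion minus control space. With 1 animal left out, the fit over all types called 1 to 1 for control space minus border-zone cartilage, 0 to 1 for reference mesenchyme minus perichondrium, 0 to 1 for reference cartilage minus border-zone cartilage and 0 to 1 for fusion minus control space, and 0 for the others. Without the reference types and 1 animal it called 4 to 6 for control space minus border-zone cartilage, 2 to 4 for control perichondrium minus border-zone cartilage, 0 to 4 for control space minus perichondrium, 2 to 5 for GOF minus control in space, 1 to 4 for GOF minus control in perichondrium, 0 to 2 for GOF minus control in border-zone cartilage, 3 to 8 for fusion minus control space, 1 to 2 for fusion minus GOF space, 0 to 2 for fusion minus GOF border-zone cartilage, 1 to 3 for the genotype effect in space minus that in border-zone cartilage and 0 to 2 for the genotype effect in perichondrium minus that in border-zone cartilage. The replicate number as a block gave 0 for reference mesenchyme minus perichondrium, since Itga6 no longer passed, and it ended or added no other count beyond 1.5 times. Same-numbered animals had correlations of 0.052, 0.051 and 0.032 between their deviations over all targets in the 3 joint types. These values gave no sign of pairing, but they cannot exclude a shared litter, slide or run. Of 687 alternative values of the 39 named member results, 468 kept their side of the threshold and their direction, 38 no longer passed, 0 reversed and the rest came to pass it. Among single members, Itga10 in control space against border-zone cartilage did not pass with medians over regions (adjusted p = 0.0716), nor Itga5 in fusion against control space with a pseudocount of 0.5 (0.0544) or the negative probe subtracted (0.145). The cause was not tested, except that a fit with fewer animals has fewer degrees of freedom. For the 12 subunits at background no difference can be read. Whether depth or low expression placed them there was not tested.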
